A study of Homo sapiens with 6 samples.

Results

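The 10 genes described here encode the enzymes that make, lengthen and desaturate fatty acids: ACLY, ACSS2, ACACA, FASN, ELOVL5, ELOVL6, SCD, SCD5, FADS1 and FADS2. They were chosen by gene name, and all 10 were found among the 60448 genes of both deposited tables and were tested in both. The assay, 4sU-seq, measures nascent RNA, here in an immortalised human retinal pigment epithelium line named RPE1. Cells take up the uridine analogue 4-thiouridine, and the RNA that carries it is collected and sequenced. The 6 libraries formed 3 groups of 2. The first was NuMA (TDIF) knockdown cells given doxycycline and hydrogen peroxide (H2O2), the second was wild type cells given H2O2 without doxycycline, and the third was wild type cells given neither agent. NuMA, the product of NUMA1, focuses microtubules at the spindle poles in mitosis. The drug and the knockdown came together, so they cannot be told apart. The labels give no dose, labelling time or clone number. Nothing in them says that the libraries are separate cultures, so the p-values reflect the spread between these libraries alone, and that spread may be technical.

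ACLY and ACSS2 supply cytosolic acetyl-CoA, ACACA carboxylates it to malonyl-CoA in the committed step, and FASN condenses these units into palmitate. ELOVL enzymes then lengthen the chain, stearoyl-CoA desaturases (SCD and SCD5) turn saturated chains into monounsaturated ones, and FADS1 and FADS2 desaturate polyunsaturated chains. In many mammalian tissues, transcription of most of these genes is driven by the sterol-regulated factors SREBF1 and SREBF2, which act with NF-Y and SP1 at promoters, and the products serve as membrane phospholipids and stored fat.

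The files hold 1 value per gene and group, pooled over the libraries, so no value per library can be given and overlap between groups cannot be judged. Mean counts per library were worked out from these values. They summed to 16827872 for the knockdown with H2O2, 18341732 for wild type with H2O2 and 14786612 for untreated wild type. Where the annotation did not settle a gene's length, its mean count is known only up to a whole multiple. Over genes with a settled length the sums were 13961358, 14857584 and 12539786 in the same order. Changes below are log2 differences relative to the median gene among those with 50 or more mean counts, whose own shift was 0.29 for H2O2-treated over untreated wild type cells and -0.29 for knockdown over wild type cells, both with H2O2. Each is given ± the standard error (SE) implied by the deposited p-value. The words rose and fell are kept for genes that were called, which means that the Benjamini-Hochberg adjusted p over all genes tested was under 0.05 in the deposited table and again after centring, in the same direction. NUMA1 had a mean count of 933.5 in the knockdown, 1571 in wild type cells with H2O2 and 1168 in untreated wild type cells. It fell in the knockdown by 0.46 ± 0.12 on the log2 scale. In that comparison 21.1% of all genes tested were at -0.5 or lower, so this fall does not stand out. Nascent RNA does not show how far NuMA protein was depleted. Of the retinal pigment epithelium markers, RPE65 (at most 6 mean counts in any group) and TYR (at most 0.5) were at or near 0, and 3 of the 6 were under 10 mean counts in every group. MITF had 583.5, 660.5 and 674 mean counts in the same order of groups, OTX2 had 160.5, 166.5 and 387, and BEST1 had 33.5, 63 and 4.5, so that with H2O2 the last of these was higher and OTX2 lower than in untreated wild type cells. The genes lie on chromosomes 10 (SCD), 4 (SCD5 and ELOVL6), 17 (FASN, ACACA and ACLY), 20 (ACSS2), 6 (ELOVL5) and 11 (FADS1 and FADS2).

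The upstream promoter sequences of 4 genes are shown because they form pairs of related enzymes whose members changed by different amounts. SCD changed far more than SCD5 after H2O2, and ELOVL5 rose where ELOVL6 was not called. Each is the 250 bases before the RefSeq start on GRCh38.p14, 5′ to 3′ on the gene's own strand. Capitals mark matches to CCAAT (the NF-Y motif), GGGCGG (the SP1 motif) or CACGTG (the E-box of USF and MLX factors), on either strand.
SCD (chr10:100346983-100347232, plus strand): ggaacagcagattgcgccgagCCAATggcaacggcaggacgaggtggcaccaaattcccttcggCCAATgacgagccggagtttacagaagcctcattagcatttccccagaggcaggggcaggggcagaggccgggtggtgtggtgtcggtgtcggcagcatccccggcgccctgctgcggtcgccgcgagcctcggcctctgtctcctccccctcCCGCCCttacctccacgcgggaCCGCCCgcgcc
SCD5 (chr4:82798797-82799046, minus strand): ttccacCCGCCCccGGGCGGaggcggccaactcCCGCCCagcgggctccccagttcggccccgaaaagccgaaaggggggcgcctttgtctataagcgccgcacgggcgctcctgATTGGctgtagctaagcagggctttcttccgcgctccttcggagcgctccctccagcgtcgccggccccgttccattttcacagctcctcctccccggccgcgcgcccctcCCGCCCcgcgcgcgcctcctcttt
ELOVL5 (chr6:53348951-53349200, minus strand): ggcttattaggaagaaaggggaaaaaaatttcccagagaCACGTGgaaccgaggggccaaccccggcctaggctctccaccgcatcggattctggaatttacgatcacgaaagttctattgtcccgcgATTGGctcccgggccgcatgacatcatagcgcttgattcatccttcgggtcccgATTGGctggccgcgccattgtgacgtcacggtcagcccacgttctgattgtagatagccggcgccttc
ELOVL6 (chr4:110198616-110198865, minus strand): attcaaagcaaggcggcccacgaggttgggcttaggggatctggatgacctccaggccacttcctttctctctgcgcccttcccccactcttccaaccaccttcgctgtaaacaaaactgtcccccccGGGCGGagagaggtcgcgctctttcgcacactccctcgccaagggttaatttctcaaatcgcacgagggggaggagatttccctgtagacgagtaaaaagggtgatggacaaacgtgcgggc
The SCD window holds 2 CCAAT matches, at -229 and -186 bases from the start, and 2 GGGCGG matches near the start. SCD5 holds 1 CCAAT and 4 GGGCGG matches. ELOVL5 holds 2 CCAAT matches and the single CACGTG match found among the 9 genes with a window, and ELOVL6 holds 1 GGGCGG match alone. A further pair that changed by different amounts, FADS1 and FADS2, is not printed. FADS1 held 2 GGGCGG matches and no CCAAT, yet rose by 1.59 after H2O2, against 1.33 for ELOVL5 and 1.30 for SCD5. FADS2 held no match at its first start, and 1 CCAAT and 1 GGGCGG match at its second. Whether matches go with the changes was not tested.

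Windows that add 50 bases after the start were available for 9 of the 10 genes, with 14 starts in all, and FASN had none in the table. Matches to CCAAT occurred in 7 of those 9 genes, against 39.7% of 27305 genes in the RefSeq table, and matches to GGGCGG in 8 of 9, against 48.3%. Neither strand of any window matched TCACNCCAC, a form of the sterol regulatory element that 1.39% of all genes hold. CACGTG was found in ELOVL5 alone, against 8.77% of all genes. No motif overlapped a match to another of the 4 motifs. The members' windows ranged in GC content between 45.3% and 82.3%, with a median over all windows in the table of 58.7%. Both extremes were starts of ACACA, on the minus strand, at its lowest and its highest genome position in turn. A match describes letters in a window and is not evidence of binding.

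**Figure D1:**
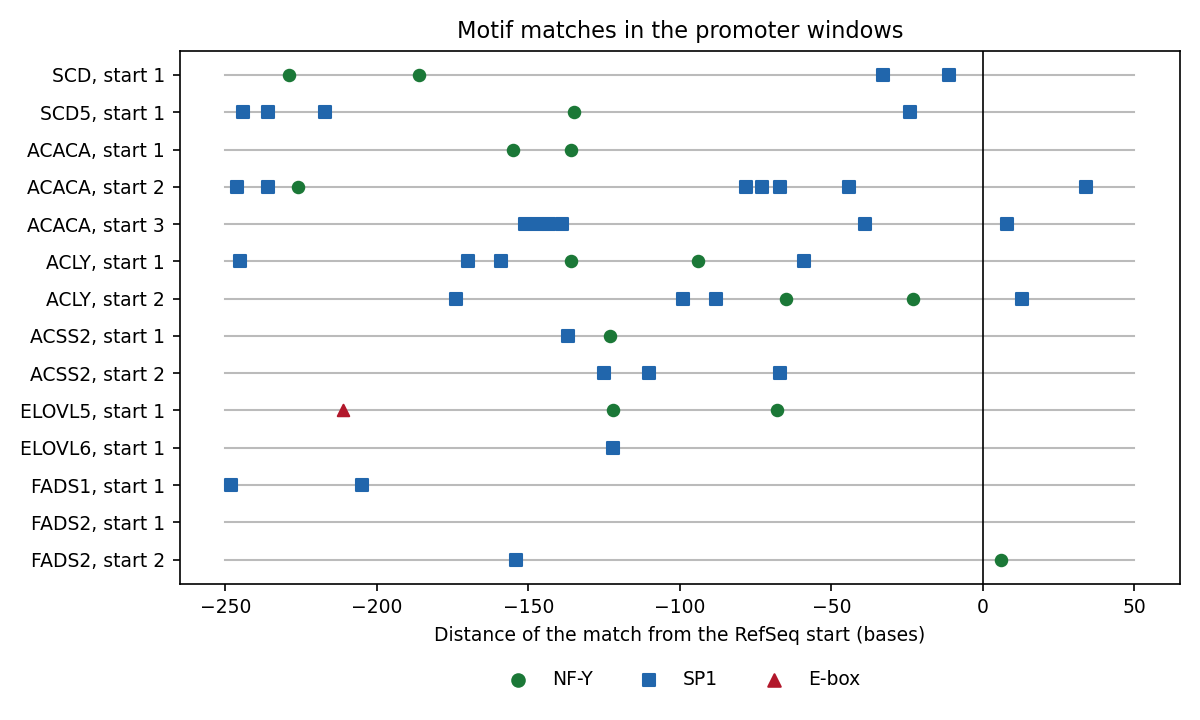
Positions of motif matches in the 14 promoter windows of 9 genes, with the distance from the RefSeq start in bases on the horizontal axis and 1 line per start. Green circles are NF-Y (CCAAT), blue squares SP1 (GGGCGG) and the red triangle the E-box (CACGTG); the first FADS2 start holds no match.

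Levels are mean counts per kilobase of length, scaled to a total of 1000000 counts in each group. FASN had the highest level of the 10 genes in every group, at 274 in H2O2-treated knockdown cells, 473 in wild type cells with H2O2 and 75.8 in untreated wild type cells. SCD, at 7.96, was the lowest of the 10 in untreated wild type cells. With H2O2 it was at 117 in the knockdown, after FASN and FADS2, and at 215 in wild type cells, after FASN alone. ACACA had the lowest level in H2O2-treated knockdown cells, at 20.7, and ELOVL6 in H2O2-treated wild type cells, at 31.9. The highest level was 13.2 times the lowest in H2O2-treated knockdown cells, 14.8 times in wild type cells with H2O2 and 9.53 times in untreated wild type cells.

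The order of levels between genes depended on the length used. The authors' values rest, as far as could be worked out, on the mean length of a gene's annotated transcripts, taken here as 2101 bases for FASN against 8565 for its longest transcript, and 1107 bases for FADS1 against 4525. The FASN length was not settled by its match to the annotation, so a whole multiple may separate its mean counts from the true ones, with its level on that length and its changes left as they are. Per kilobase of all exons joined, SCD was the highest of the 10 genes in both H2O2-treated groups, at 117 in the knockdown and 215 in wild type cells, against 61.4 and 106 for FASN, whose value on this length carries the same doubt. ACLY was then the highest in untreated wild type cells, at 27.1. Whether neighbours in either order differ beyond the spread between libraries was not tested.

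**Figure D2:**
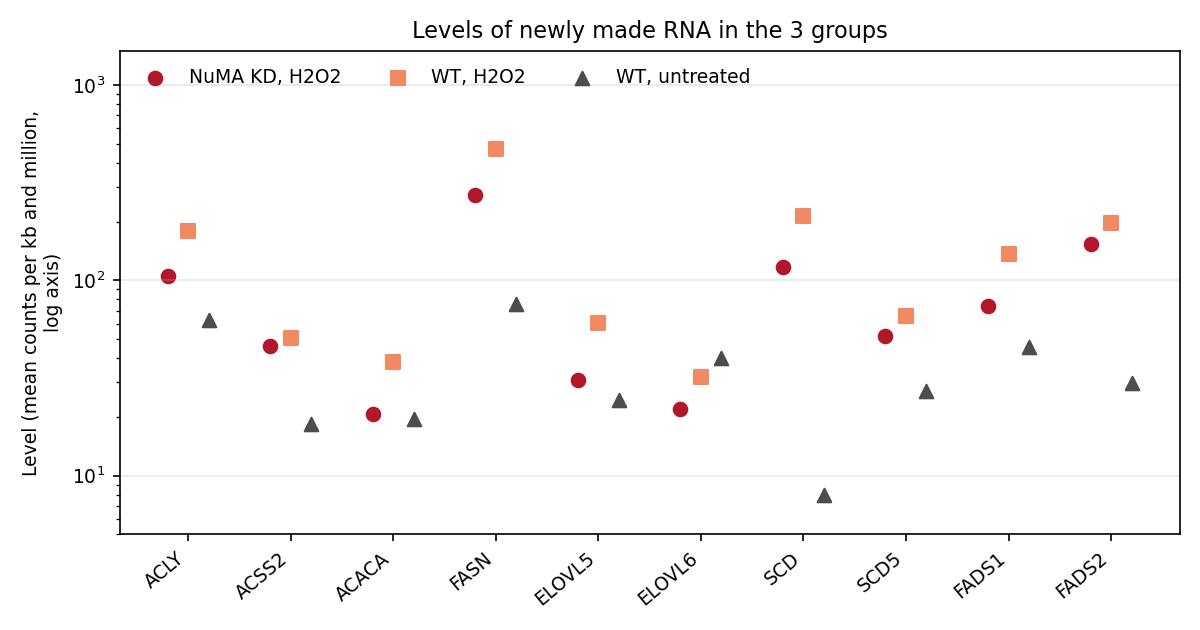
Level of newly made RNA of each gene (mean counts per kilobase, scaled to 1000000 counts in all, log axis) in H2O2-treated NuMA knockdown cells (circles), H2O2-treated wild type cells (squares) and untreated wild type cells (triangles), 1 pooled value per group. SCD spans the widest range, with 117, 215 and 7.96, and ELOVL6 has its highest level, 39.9, in untreated wild type cells.

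The question of the first comparison was which genes were transcribed differently after H2O2 in wild type cells. Of the 10 genes, 9 rose and none fell, while ELOVL6 was not called. Over all 18522 genes tested, 26.2% were called, 16.6% higher and 9.60% lower. Among the 11647 with at least 50 mean counts, as all 10 genes had, 2472 were higher and 1561 lower. The same 9 genes were higher in the authors' deposited table, which is not centred, against 36.3% of all genes called, 26.7% of genes being higher. By the adjusted p after centring alone 32.3% of all genes were called, 15.8% lower. The median log2 change was 1.51 over the 10 genes and 0.05 over all genes tested.

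The acetyl-CoA suppliers rose by similar amounts. ACLY, which cleaves citrate exported from mitochondria, had a mean count of 7403 in H2O2-treated and 2091.5 in untreated wild type cells. ACSS2, which makes acetyl-CoA from acetate, had 940.5 in H2O2-treated and 273.5 in untreated cells. Both stood well above their untreated values, by 1.53 ± 0.21 for ACLY and 1.49 ± 0.21 for ACSS2 on the log2 scale.

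The synthesis steps differed in size. ACACA, the carboxylase that makes malonyl-CoA, had 1849 mean counts with H2O2 and 765 without, a log2 change of 0.98 ± 0.21, the smallest of the 9 rises (Benjamini-Hochberg adjusted p = 3.13e-05). FASN, the multifunctional synthase, had 18241 with H2O2 and 2355.5 without. Its change of 2.66 ± 0.21 was a 6.33-fold rise, exceeded among the 10 genes by SCD and FADS2 alone.

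The elongases parted. ELOVL5, which lengthens polyunsaturated and some monounsaturated chains, had 1837 mean counts in H2O2-treated and 597 in untreated wild type cells and rose by 1.33 ± 0.20. ELOVL6, which lengthens palmitate towards stearate, had 914 with H2O2 and 922.5 without. Its log2 change was -0.30 ± 0.21, with a 95% interval of -0.72 to 0.11 and a Benjamini-Hochberg adjusted p of 0.281, so the interval covers both a fall and a small rise. The difference between the paralogues, ELOVL5 minus ELOVL6, was 1.63 ± 0.29.

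SCD, the main stearoyl-CoA desaturase, had the largest change of the 10. It had a mean count of 21133.5 in H2O2-treated and 631 in untreated wild type cells, a rise of 4.77 ± 0.19 on the log2 scale or 27.3-fold (Benjamini-Hochberg adjusted p = 1.56e-141). Among the 11647 tested genes with at least 50 mean counts, its change was the 24th highest. SCD5, a second desaturase of the same reaction found in primates and some other mammals, had 3072.5 with H2O2 and 1016.5 without and rose by 1.30 ± 0.19. SCD rose more than SCD5 by 3.47 ± 0.27, so that the desaturase with fewer counts in untreated cells was the one with more after H2O2.

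Both desaturases of polyunsaturated chains rose. FADS2, which introduces the first double bond towards the carboxyl end, had 5451.5 mean counts in H2O2-treated and 665.5 in untreated wild type cells, a rise of 2.74 ± 0.19 or 6.69-fold. FADS1, which acts later on the lengthened chain, had 2771 with H2O2 and 750 without and rose by 1.59 ± 0.21. FADS2 exceeded FADS1 in change by 1.15 ± 0.28. These genes overlap on opposite strands of chromosome 11 (FADS1 at 61799625 to 61829318 on the minus strand, FADS2 at 61792980 to 61867354 on the plus strand, hg38), and the strand setting of the counting is not given in the sources used here, so reads from the shared stretch cannot be told apart.

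The 3 paralogue pairs were chosen after their values were seen, so their differences are given as descriptions with no test, with SEs taken as independent. A difference between genes in 1 comparison does not depend on how the groups were scaled.

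The second comparison asked how NuMA knockdown cells differed from wild type cells when both had H2O2. There was no group of untreated knockdown cells. A difference already present without H2O2 and a different response to H2O2 therefore cannot be told apart. Of the 10 genes, 7 fell and none rose, while FADS2, SCD5 and ACSS2 were not called. Over all 18266 genes tested, 21.2% were called, 6.81% higher and 14.4% lower. Among the 11600 with at least 50 mean counts, as all 10 genes had, 1177 were higher and 2490 lower. Uncentred, the authors' deposited table had all of the 10 but ACSS2 lower, against 34.8% of all genes called and 28.0% lower. By the adjusted p after centring alone 29.9% of all genes were called, 15.5% higher, and the calls of the 10 genes were as above. The median log2 change was -0.61 over the 10 genes and 0.02 over all genes tested. Relative to the median gene no fall reached 2-fold. In the authors' deposited table, without centring, ELOVL5 (-1.09), FADS1 (-1.02), SCD (-1.002) and ACACA (-1.0) did. The comparison shares its wild type libraries with the first, so an error in those libraries moves the values of both in opposite directions, and changes in the pair of comparisons are set side by side here without a joint test.

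ELOVL5 fell the most, with 862 mean counts in the knockdown against 1837 in wild type cells, a change of -0.80 ± 0.10 (Benjamini-Hochberg adjusted p = 3.31e-13). FADS1 had 1370 in the knockdown against 2771 in wild type cells and fell by 0.72 ± 0.11. ACACA had 924 in the knockdown against 1849 in wild type cells and fell by 0.71 ± 0.10. These genes all stood well below their H2O2-treated wild type values.

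SCD had 10552 mean counts in the knockdown and 21133.5 in wild type cells, a change of -0.71 ± 0.08. FASN had 9678 in the knockdown and 18241 in wild type cells and fell by 0.62 ± 0.10. ACLY had 4002.5 in the knockdown and 7403 in wild type cells and fell by 0.60 ± 0.08. All of these genes were below their H2O2-treated wild type values as well.

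ELOVL6 had 574 mean counts in the knockdown and 914 in wild type cells, and its fall of 0.38 ± 0.12 was the smallest of those called (Benjamini-Hochberg adjusted p = 0.00958). FADS2 had 3918.5 in the knockdown and 5451.5 in wild type cells, a change of -0.19 ± 0.08 (95% interval -0.35 to -0.02, Benjamini-Hochberg adjusted p = 0.0770). SCD5 had 2213.5 in the knockdown and 3072.5 in wild type cells, a change of -0.18 ± 0.09 (Benjamini-Hochberg adjusted p = 0.131). FADS2 and SCD5 were called lower in the authors' deposited table, which was not centred, and their calls depend on the scaling. ACSS2 had 782.5 in the knockdown and 940.5 in wild type cells. Its change of 0.03 ± 0.12, with a 95% interval of -0.22 to 0.27, was -0.27 without centring.

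Paralogues also parted in the knockdown. SCD minus SCD5 was -0.53 ± 0.12, FADS2 minus FADS1 was 0.54 ± 0.14 and ELOVL5 minus ELOVL6 was -0.42 ± 0.16. As after H2O2, these are descriptions of pairs chosen after their values were seen, and the FADS1 and FADS2 values carry the limit on their shared reads.

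**Figure D3:**
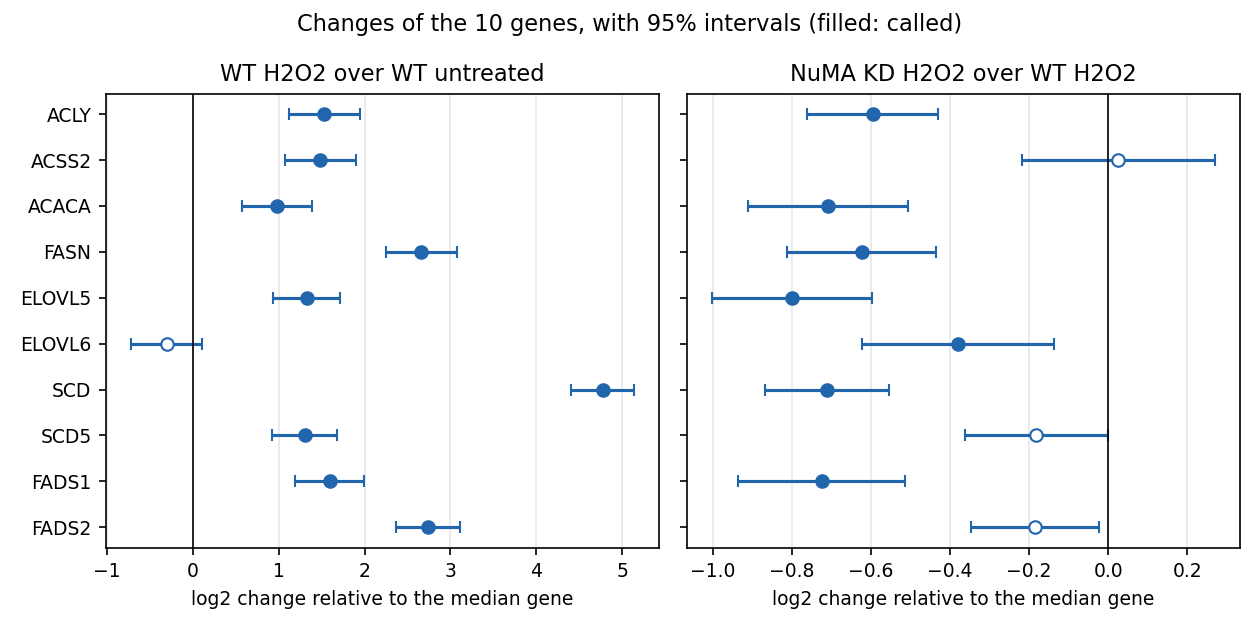
Log2 change relative to the median gene of each of the 10 genes, with 95% intervals from the implied standard error, for H2O2-treated over untreated wild type cells (left) and NuMA knockdown over wild type cells with H2O2 (right, on a narrower axis). Filled points were called, so that 9 lie right of 0 on the left panel and 7 left of 0 on the right panel.

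No deposited test compares H2O2-treated knockdown cells with untreated wild type cells, and these are given as values alone. The log2 differences, relative to their own median gene, were 4.06 for SCD, 2.55 for FADS2, 2.03 for FASN, 1.51 for ACSS2 and 1.12 for SCD5. They were 0.93 for ACLY, 0.86 for FADS1, 0.52 for ELOVL5, 0.27 for ACACA and -0.69 for ELOVL6. SCD thus stood 16.6-fold above untreated wild type cells in the treated knockdown, ACACA 1.20-fold above them, and ELOVL6 below them.

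For SCD and FADS2, the 2 genes with the largest change after H2O2, the protein-coding genes nearest in the plane of the 2 changes were listed, out of 10571 with at least 50 mean counts in both comparisons. FADS2 lay closest to DHCR7, at 0.22 on the log2 scale, then to MMP11, CRIP2, HES6 and IDI1, the last at 0.31. Of these, DHCR7 and IDI1 make cholesterol and its isoprenoid precursors. SCD stood further from any other gene, with LRRN1, ACTA2, MFAP4, PPL and IGFBP5 nearest at 0.85 to 0.91. Nearness here rests on 2 comparisons that share a group.

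**Figure D4:**
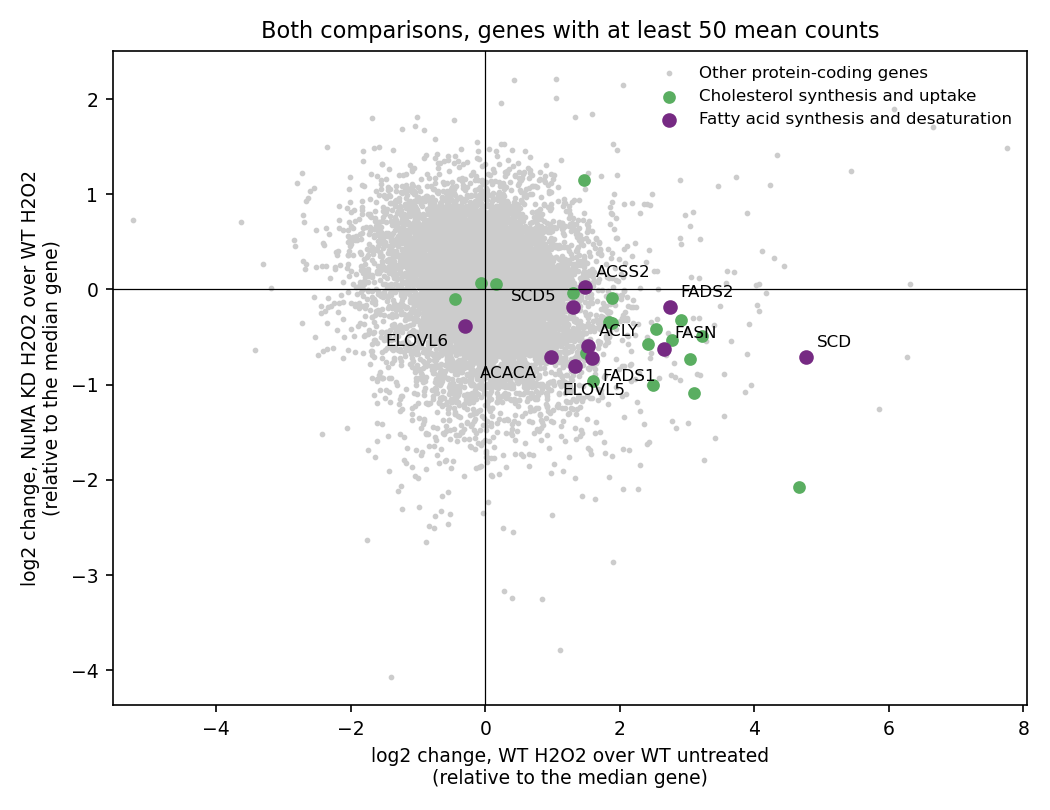
Log2 change in H2O2-treated over untreated wild type cells (horizontal) against that in NuMA knockdown over wild type cells with H2O2 (vertical), both relative to the median gene, for protein-coding genes with at least 50 mean counts. Purple points are the 10 fatty acid genes and green points genes of cholesterol synthesis and uptake; SCD lies at 4.77 and -0.71. The axes share the H2O2-treated wild type libraries.

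Around these enzymes, 9 lists of the wider pathway were counted. Their counts are to be read against 16.6% of all genes higher and 9.60% lower after H2O2. In the knockdown those shares were 6.81% higher and 14.4% lower. The shares take in genes with few counts, and larger shares were called among genes with at least 50 mean counts. After H2O2, 3 of 5 tested genes of precursor and NADPH supply rose and none fell, with IDH1 at 1.85 ± 0.22 and malic enzyme ME1 at 0.99 ± 0.22, both sources of cytosolic NADPH. Of the partners of acetyl-CoA carboxylase and the kinase AMPK that inhibits it, 1 of 10 rose after H2O2, the AMPK subunit PRKAG2, at 0.60 ± 0.22. In the knockdown MID1IP1, which promotes assembly of the carboxylase into filaments, fell by 0.39 ± 0.10, and STK11, the kinase that activates AMPK, rose by 0.65 ± 0.10, of 9 tested.

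Mitochondrial fatty acid synthesis is a separate pathway that makes the lipoate precursor. Of its 6 genes 1 rose after H2O2 (HSD17B8, 1.70 ± 0.48, on 60.5 mean counts with H2O2 and 14.5 without) and 2 fell (OXSM at -1.30 ± 0.29 and MCAT at -1.04 ± 0.23), and none was called in the knockdown. Of 15 other elongation and desaturation genes, 7 rose after H2O2 and none fell. HACD2, the dehydratase of the elongation cycle, had 3443.5 mean counts with H2O2 and 518.5 without and rose by 2.44 ± 0.21. The elongase ELOVL7 rose by 2.39 ± 0.72, on 31 mean counts with H2O2 and 4 without. In the knockdown HACD2 fell by 0.999 ± 0.10 and the elongase ELOVL2 by 1.31 ± 0.50, on 16 mean counts in the knockdown and 50.5 in wild type cells, while FADS3, the desaturase next to FADS2, rose by 0.98 ± 0.10 and TECR, the last enzyme of the cycle, by 0.67 ± 0.11. In all 3 of the 15 fell there and 2 rose.

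Among acyl-CoA activating and fatty acid binding genes, 2 of 10 rose after H2O2, the synthetases ACSL3 (1.66 ± 0.22) and ACSL4 (1.08 ± 0.20), and the binding protein FABP5 fell by 0.98 ± 0.21. In the knockdown 5 of 10 fell and none rose, led by ACSL1 (-0.87 ± 0.16) and ACSL3 (-0.76 ± 0.11). Of 13 genes of glycerolipid synthesis and storage, 4 rose after H2O2, among them PNPLA3 (1.21 ± 0.26) and the phosphatidate phosphatase LPIN1 (1.09 ± 0.20), and the lipid droplet coat gene PLIN2 fell by 0.83 ± 0.21. In the knockdown 4 fell, with AGPAT5 at -0.82 ± 0.16 and LPIN1 at -0.53 ± 0.11, and 2 rose, the acyltransferase AGPAT2 (0.81 ± 0.13) and the triglyceride lipase PNPLA2 (0.69 ± 0.08).

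Of 18 genes of the transcriptional control of lipogenesis, 6 rose after H2O2 and 1 fell. INSIG1, which retains SREBP precursors in the endoplasmic reticulum, had 4005 mean counts with H2O2 and 615 without and rose by 2.41 ± 0.21. SREBF2 rose by 2.02 ± 0.20, and the E-box factor USF1 fell by 1.20 ± 0.22. In the knockdown 5 of 18 fell, led by the SREBP protease MBTPS2 (-0.72 ± 0.16) and the NF-Y subunit NFYA (-0.70 ± 0.24), and 2 rose, the liver X receptor NR1H2 (0.64 ± 0.10) and USF2 (0.55 ± 0.09). SREBF1 itself rose after H2O2 by 1.65 ± 0.20. It had 3191 mean counts in the knockdown and 2712 in wild type cells with H2O2, a centred value of 0.53 ± 0.12 that was not called, because the deposited table, uncentred, did not call it.

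Of 20 fatty acid oxidation genes 7 rose after H2O2 and 1 fell. Those higher included peroxisomal HSD17B4 (0.98 ± 0.23) and the carnitine palmitoyltransferase CPT1A (0.85 ± 0.22). The 1 that fell was the acyl-CoA dehydrogenase ACADVL (-0.80 ± 0.20). In the knockdown 2 of 20 fell, ACADM (-0.62 ± 0.16) and CPT1A (-0.29 ± 0.11), and DECR1 rose by 0.61 ± 0.11. Cholesterol synthesis and uptake, which SREBF2 chiefly drives, had 17 of 20 higher after H2O2 and none lower. HMGCS1 was at 4.66 ± 0.23 and CYP51A1 at 3.34 ± 0.62, the latter on 67 mean counts with H2O2 and 4.5 without. In the knockdown 14 of these 20 fell, and TM7SF2 rose by 1.15 ± 0.11. CYP51A1 was at -2.10 ± 0.54, on 12 mean counts in the knockdown and 67 in wild type cells, and HMGCS1 at -2.08 ± 0.10.

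The medians of the lists, as log2 changes after H2O2, were 2.15 for cholesterol synthesis and uptake, 0.85 for precursor and NADPH supply, 0.67 for other elongation and desaturation genes, 0.49 for acyl-CoA activation and binding and 0.32 for glycerolipid synthesis. They were 0.18 for oxidation, 0.07 for transcriptional control, -0.03 for carboxylase partners and AMPK and -0.42 for mitochondrial synthesis. In the knockdown the medians were -0.51 for acyl-CoA activation and binding, -0.45 for cholesterol synthesis, -0.25 for glycerolipid synthesis and -0.08 for transcriptional control. The other medians in the knockdown lay between -0.04 and 0.28. Without centring the median of carboxylase partners and AMPK was 0.26 after H2O2 and -0.13 in the knockdown, and those of mitochondrial synthesis and oxidation were -0.28 and -0.01 in the knockdown, so their signs depend on the scaling.

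The counts of several lists depended on the scaling and the rule, and so did the shares of all genes tested. With no centring, those shares after H2O2 were 26.7% up and 9.60% down, and in the knockdown 6.81% up and 28.0% down. By the adjusted p after centring alone they were 16.6% up and 15.8% down after H2O2, and 15.5% up and 14.4% down in the knockdown. List counts under each rule are to be read against the shares under that rule. In the authors' deposited table, without centring, 6 of 10 acyl-CoA genes and 8 of 13 glycerolipid genes were higher after H2O2. For oxidation genes in the knockdown that table had 1 of 20 higher and 7 lower, while the adjusted p after centring alone gave 7 higher and 2 lower, so the balance of these calls turned with the scaling. For transcriptional control, centring alone gave 6 of 18 higher and 4 lower after H2O2, and 6 higher and 5 lower in the knockdown, where the deposited table had 2 higher and 9 lower. Of other elongation and desaturation genes in the knockdown, 2 of 15 were higher and 7 lower in the deposited table, and 4 higher and 3 lower by centring alone. The cholesterol list had 17 of 20 higher after H2O2 under both, and in the knockdown had 17 lower in the deposited table and 14 by centring alone.

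**Figure D5:**
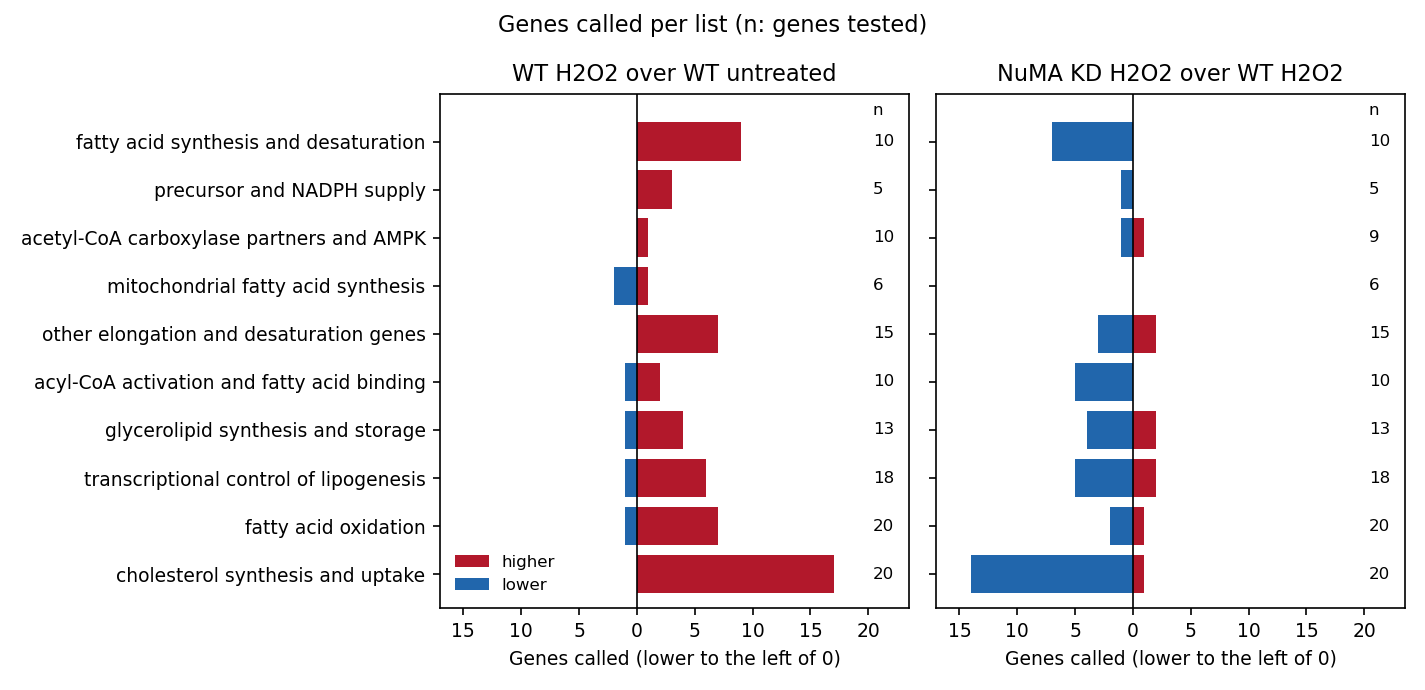
Number of genes called higher (right of 0, red) and lower (left of 0, blue) in each list, for H2O2-treated over untreated wild type cells and for NuMA knockdown over wild type cells with H2O2; n is the number of genes tested. After H2O2, 9 of the 10 fatty acid genes and 17 of 20 cholesterol genes were higher. In the knockdown 7 of the 10 and 14 of the 20 were lower, and 1 cholesterol gene was higher.

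Genes beside the enzymes were read for shared transcription or shared reads. FEN1, a flap endonuclease gene inside the span of FADS2 on the same strand, fell in both comparisons, by 0.82 ± 0.20 after H2O2 and by 1.19 ± 0.12 in the knockdown. FADS3, 6165 bases from FADS2, had 5995.5 mean counts in the knockdown, 3707.5 in wild type cells with H2O2 and 2508.5 in untreated wild type cells, and after H2O2 its change of 0.27 ± 0.21 was not called. TADA2A, which begins 56 bases from ACACA on the opposite strand, fell by 1.002 ± 0.26 after H2O2. Of the neighbours of FASN, CCDC57, at 3128 bases, had a centred value of 0.64 ± 0.15 in the knockdown and was not called, and DUS1L, at 12446 bases, rose there by 0.58 ± 0.10. GGT7, which overlaps ACSS2 on the opposite strand with 1137, 1167 and 801 mean counts in the knockdown, the H2O2-treated and the untreated wild type cells, was called in neither comparison. SEC31A, next to SCD5, rose after H2O2 by 1.05 ± 0.20. The processed pseudogene SCDP1 had at most 0.5 mean counts in any group and FADS2P1 had none, so these copies took few reads.

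Longer genes among the 10 tended to have smaller changes after H2O2. The Spearman correlation between the length of the gene's span on the genome and its change was -0.83 over the 10 genes and 0.27 over 11618 genes with at least 50 mean counts. In the knockdown it was 0.22 over the 10 genes and -0.24 over 11570 genes. These are descriptions across genes that share the same libraries, and the part of gene length in the changes was not tested.

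Markers of cell types in which these enzymes are most active were low. The summed level of 5 adipocyte markers was 0.986 in H2O2-treated knockdown cells, 0.938 in wild type cells with H2O2 and 2.06 in untreated wild type cells, with 4 of 5 under 10 mean counts in every group. That of 4 hepatocyte markers was 0.420, 0.349 and 0.335 in the same order, with all 4 under 10. Summed levels of 6 simple epithelial markers were 1502, 2065 and 1140, and those of 8 fibroblast markers 182, 235 and 66.5. Both sums were highest in H2O2-treated wild type cells, but their members did not all share that order. Among fibroblast markers PDGFRB had 2405, 3987 and 407.5 mean counts and COL1A1 1382.5, 1250.5 and 535.5. COL3A1, with 0.5, 6 and 20, and DCN, with 12.5, 19.5 and 31, were highest in untreated cells. After H2O2, 2 of the 6 and 2 of the 8 markers rose and none fell, against 16.6% and 9.60% of all genes. The summed levels of 4 neuronal markers were 11.1, 18.8 and 6.40, of 4 leukocyte markers 2.53, 2.18 and 1.17, and of 6 retinal pigment epithelium markers 29.9, 30.8 and 49.2. The cells are 1 line, so these sums describe marker RNA in that line. In bulk libraries fewer cells with a marker's RNA and less of it per cell cannot be told apart. The part of such shifts in the results was not tested.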

How the data were processed

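Reads were mapped and compared by the authors. Per the submitters' processing notes the tools were STAR 2.5, DESeq and DESeq2 and the build was hg38, with no role or setting given for any; the counting tool and strand setting are not given in the sources used here. The authors deposited 2 tables of 60448 genes, each with a pooled signal value for 2 groups, a log2 fold change, a p-value and an adjusted p. The deposited signal was, from its steps, the mean count plus 1 over gene length times a factor common to both groups, and the deposited log2 fold change was the ratio of both signals with no scaling for depth. Mean counts were worked out for every gene (tolerance 1e-06), and 85.6% of tested genes had a length settled by the mean transcript length of GENCODE release 29. For the other genes the length, and so the mean count, is fixed only up to a whole multiple. The deposited p-value, two-sided, gave an implied standard error, the size of the log2 change over the normal quantile. Its median over genes with at least 500 mean counts was 0.21 for the H2O2 and 0.11 for the knockdown comparison.

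Changes were centred on the median tested gene with at least 50 mean counts (11647 and 11600 genes) and tested with a two-sided normal test, Benjamini-Hochberg adjusted over all genes tested (18522 and 18266). A gene was called at an adjusted p under 0.05 in the deposited table and after centring, with the same sign. This rule cannot call lower after H2O2, or higher in the knockdown, a gene that the uncentred table did not call. The planned count test per library could not be run on pooled values. The recovery of lengths and the centred test were run on simulated counts, with genes called by the adjusted p after centring alone. The rule that also needs a deposited call was not tested there. The simulated p-values came from a normal test with known errors, so they do not check the implied standard error on the deposited p-values. Groups came from the sample labels. The named genes are the 10 members, the nearest genes of the 2 with the largest H2O2 change, up to 2 called genes per list and direction with the largest change, NUMA1, and neighbours; SREBF1 was named after its values were seen. The result of 1 listed gene is not reported here. Members and lists were chosen with earlier results of these data known. Promoter sequences came from RefSeq (GRCh38.p14) and were used for letters only. Python 3.11.15, numpy 2.4.6, scipy 1.17.1, pandas 2.3.3 and matplotlib 3.10.9 were used.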

Additional observations from a re-analysis of the deposited data

How the results depend on the processing

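The alternatives were no centring, scaling by total counts, centring on genes with at least 500 mean counts, a trimmed mean or all tested genes, errors taken from genes of like count, a filter at 50 mean counts, an adjusted p under 0.01, at least 2-fold, and, added after seeing the data, totals of genes with a settled length, lengths of joined exons and the adjusted p after centring alone. After H2O2 each of the 10 genes kept its direction and its side of the threshold under every scaling. Where at least 2-fold was required, 8 of the 10 were called after H2O2 against 9, as the change of ACACA (0.98) was under it. In the knockdown, SCD5 was also called lower with no centring (-0.47), by totals (-0.35), on high-count genes (-0.24) and by settled totals (-0.38), and so was FADS2 (-0.48, -0.35, -0.25 and -0.39). ACSS2 reversed sign under the same settings, to -0.27, -0.14, -0.037 and -0.18, and was called under none of them. By construction, each of these settings moves all genes of a comparison by a common amount. At least 2-fold from the median gene, no member was called in the knockdown (0), whereas 4 reached 2-fold without centring (ELOVL5, FADS1, SCD and ACACA), and 3108 genes were called after H2O2 and 1088 in the knockdown. With no centring 6362 genes were called in the knockdown, against 3881. The adjusted p after centring alone called 15.8% of genes lower after H2O2, against 9.60%, and 15.5% higher in the knockdown, against 6.81%. Per kilobase of joined exons the highest level of the members was 27.7 times the lowest in H2O2-treated knockdown cells and 31.5 times in H2O2-treated wild type cells. No paired analysis was possible because the files hold no value per library, and leaving out each replicate was not run for the same reason.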
